A study of Homo sapiens with 8 samples.

Results

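A total of 55 genes that encode SR proteins, hnRNPs and other splicing factors were followed in BCPAP cells after knockdown of *EPB41L4A*. Genes were chosen by symbol: SRSF or HNRNP genes, SF3A and SF3B subunits, *U2AF1*, *U2AF2*, *RBFOX2*, the MBNL, ESRP and PTBP families, *CELF1* and *QKI*, without pseudogenes. They are 55 of the 33616 genes with a probe set of a single symbol, and for a gene with several such probe sets the brightest on average was taken. By role, 24 are hnRNPs, 11 are SR proteins, 11 are subunits of SF3A, SF3B or U2AF, 7 belong to the MBNL, RBFOX, ESRP, CELF and QKI group and 2 are PTBP genes. *SRSF2*, *HNRNPA3*, *ESRP2* and *PTBP1* occur only on probe sets shared with a microRNA symbol, and these 4 genes were not followed.

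BCPAP is a line established from a human papillary thyroid carcinoma. One group of 4 cultures received an siRNA pool against *EPB41L4A* (si*EPB41L4A*), and the other group of 4 received a pool against a non-specific target (si*NS*). Both groups were transfected with Lipofectamine RNAiMAX and harvested after 72 h, and total RNA was hybridised to Clariom D Human arrays. Each group rests on 1 siRNA pool in 1 line, so a change cannot be told apart from an effect of that pool on other transcripts. For the si*NS* samples the treatment text mentions si*LRRC34*, whereas every title and source name reads si*NS*. The repository numbers the si*NS* samples in a run far from that of the si*EPB41L4A* samples. If the groups were also processed apart, knockdown and batch cannot be told apart.

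Splicing removes introns from precursor mRNA. The SF3A and SF3B complexes are parts of the U2 small nuclear ribonucleoprotein (snRNP), which binds the branch point, and the U2AF heterodimer reads the polypyrimidine tract and the 3′ splice site. SR proteins bind exonic enhancers and mostly favour the use of nearby splice sites, whereas hnRNPs often bind silencers and also package, export and stabilise RNA. Members of the MBNL, RBFOX, CELF, QKI, ESRP and PTBP families set tissue-dependent exon choice, and whether they promote or block an exon commonly depends on where they bind relative to it. Many SR protein and hnRNP genes control their own mRNA through exons that trigger nonsense-mediated decay.

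The deposited values are log2 signals per probe set, so a difference of 1 is a doubling of signal on an array. They give the level of a gene as a whole, and exon use was not analysed here. RNA came from whole cultures, so fewer cells that express a gene and less of its RNA per cell cannot be told apart. *EPB41L4A* itself fell by 3.20 on the log2 scale, with 5.55, 5.94, 6.72 and 7.09 on the si*EPB41L4A* arrays and 9.65, 9.22, 9.81 and 9.44 on the si*NS* arrays (adjusted p = 0.000491 from limma). Array medians lay between 3.72 and 3.84, and means of the negative control probe sets between 4.05 and 4.29. Of the markers of the labelled line, 4 of 6 epithelial genes (the keratins) and 3 of 6 measured thyroid genes (*PAX8*, *NKX2-1* and *FOXE1*) lay at least 1 above the negative controls on every array, while *CDH1*, *TG*, *TSHR* and *SLC5A5* lay above them on none. The epithelial markers *KRT7* and *EPCAM* were called lower, with means of 13.99 and 5.72 with si*EPB41L4A*, against 15.41 and 8.16 with si*NS* (adjusted p = 0.00645 and 0.00683 from limma). The epithelial genes *KRT8*, *KRT18* and *KRT19* were not called (adjusted p = 0.109, 0.566 and 0.824 from limma), *CDH1* was not tested, and no mesenchymal marker was called. The part of *KRT7* and *EPCAM* in the changes of splicing factor genes was not tested. Among markers of other cells, no endothelial gene of 3 and 1 leukocyte gene of 4, *CD68*, lay at least 1 above the negative controls on all arrays, as did 3 mesenchymal genes of 5 (*VIM*, *COL1A1* and *COL1A2*).

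Knockdown of *EPB41L4A* went with higher *QKI* and *MBNL1* and lower *SRSF9*, while the large majority of splicing factor genes showed no change that passed the test. A gene was called where its adjusted p from limma, over all 66831 tested probe sets, was under 0.05. Of the 54 members tested, 2 were called higher and 1 was called lower. Among all tested probe sets, 1.23% were called higher, 1.38% lower and 2.61% in either direction. Of the 22465 tested genes with a single symbol, 2.55% were called higher and 2.96% lower, 5.51% in all, and the 5.56% of members called is close to that share. The members thus did not stand out as a class: their median log2 change was 0.04, against -0.06 for all tested genes with a single symbol, and the median size of the change was 0.28, against 0.29. Of the members, 32 had a positive change and 22 a negative one, and 41 changed by less than 0.5 in either direction. Standard errors of the members' changes ran between 0.19 and 0.46. Their median of 0.26 was close to the median size of the change, so a typical change was not set apart from its error. These errors are moderated by limma toward a variance shared over all tested probe sets, and can exceed the spread of a gene's own arrays. *ESRP1*, an epithelial splicing regulator, lay above the array median on too few arrays to be tested (3.04, 3.93, 3.57 and 4.10 with si*EPB41L4A*, against 3.37, 3.72, 3.53 and 3.18 with si*NS*). None of these values was above 1 unit over the negative controls.

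**Figure D1:**
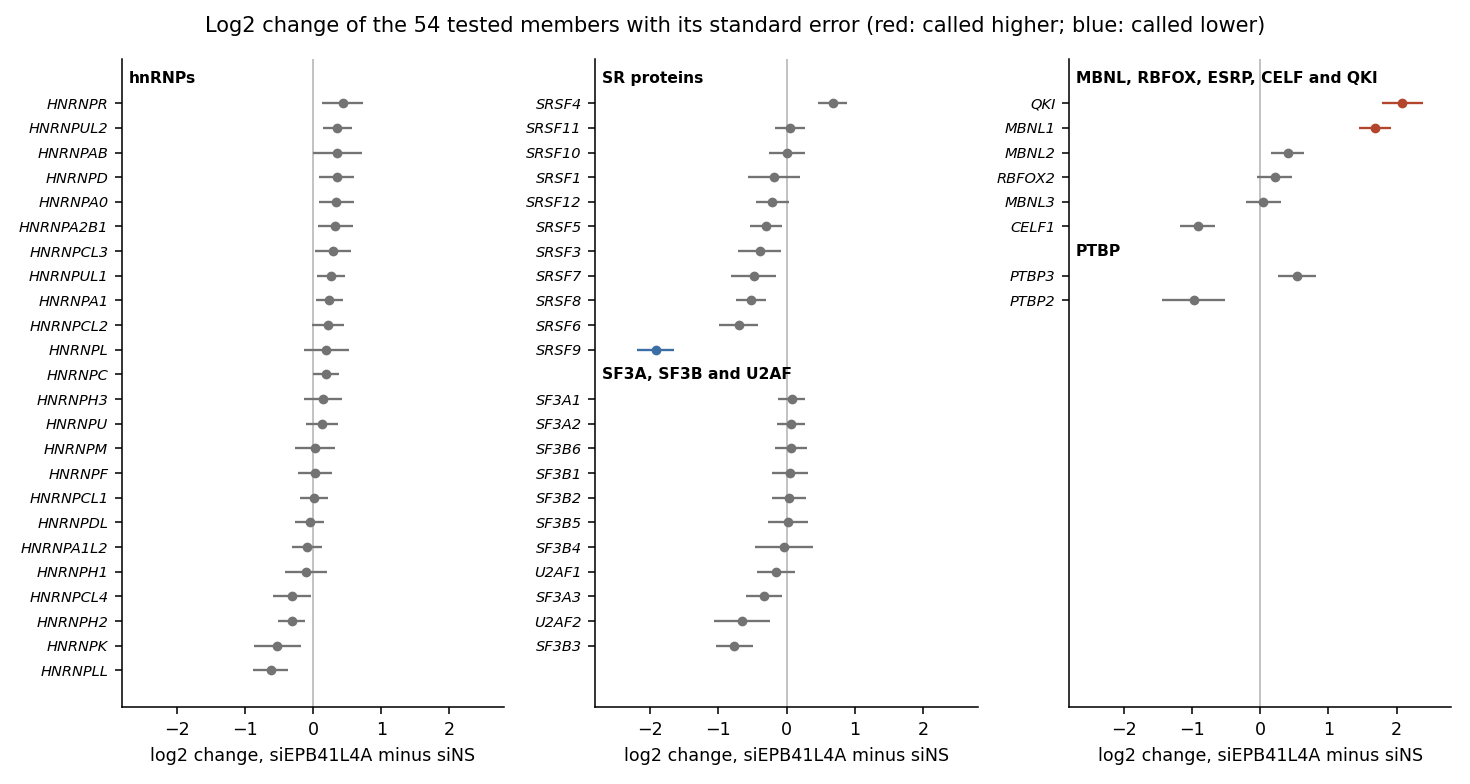
Log2 change (si*EPB41L4A* minus si*NS*, x axis) of the 54 tested members, grouped by role and sorted by size; points are changes and bars are standard errors. *QKI* at 2.08 and *MBNL1* at 1.68 are called higher and *SRSF9* at -1.92 is called lower, while all 24 hnRNPs lie between -0.62 and 0.44.

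*QKI* encodes an RNA-binding protein of the STAR family that controls splicing, mRNA stability and the formation of circular RNA, and is known for its role in myelin and in epithelial-mesenchymal transition. Its log2 values were 14.74, 15.15, 15.14 and 14.47 with si*EPB41L4A*, against 13.09, 12.79, 13.33 and 11.97 with si*NS*. All si*EPB41L4A* arrays were above all si*NS* arrays, and si*NS* replicate 4 was the lowest. The means were 14.87 ± 0.33 with si*EPB41L4A* and 12.79 ± 0.59 with si*NS* (SD, n = 4 each), a log2 change of 2.08 with a standard error of 0.30, which corresponds to 4.23-fold (adjusted p = 0.00365 from limma). With 1 array left out the change was between 1.81 and 2.26, and it was called in each of these 8 fits.

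*MBNL1*, the main muscleblind protein in most tissues, promotes the switch to adult exon patterns and is sequestered by expanded repeats in myotonic dystrophy. Its values were 14.44, 14.82, 14.86 and 15.22 with si*EPB41L4A*, against 12.74, 13.25, 13.31 and 13.30 with si*NS*. The groups did not overlap, and the gap between the lowest si*EPB41L4A* array and the highest si*NS* array was wider than the range of either group. The means were 14.83 ± 0.32 with si*EPB41L4A* and 13.15 ± 0.27 with si*NS* (SD, n = 4 each). This is a log2 change of 1.68 with a standard error of 0.24, or 3.21-fold (adjusted p = 0.00319 from limma), and it was called in all 18 alternative fits.

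**Figure D2:**
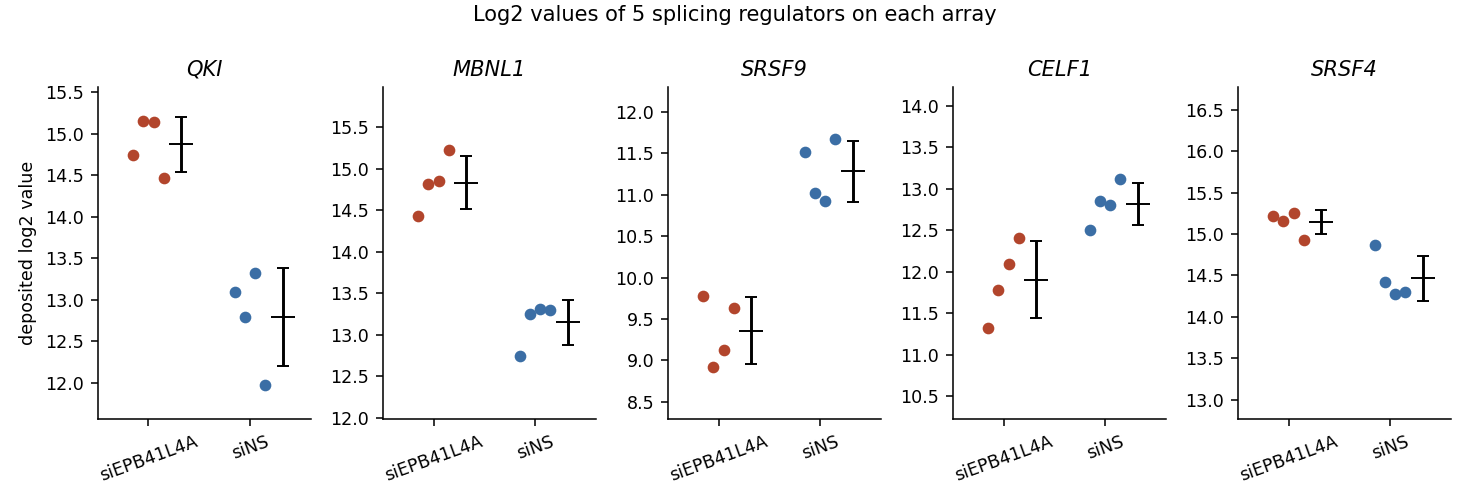
Deposited log2 values (y axis, each panel spanning 4 log2 units) of 5 splicing regulators on the 4 si*EPB41L4A* arrays (red) and the 4 si*NS* arrays (blue); black marks are means and bars are SD. The groups overlap in none of the 5 panels, and the distance between means is 2.08 for *QKI*, 1.68 for *MBNL1*, -1.92 for *SRSF9*, -0.92 for *CELF1* and 0.68 for *SRSF4*.

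*SRSF9* encodes a short SR protein known to alter the choice of 5′ splice sites. It was the only SR gene called. Its values were 9.77, 8.92, 9.12 and 9.63 with si*EPB41L4A*, against 11.52, 11.02, 10.92 and 11.67 with si*NS*. Every si*EPB41L4A* array lay below every si*NS* array by at least 1 log2 unit. The means were 9.36 ± 0.41 with si*EPB41L4A* and 11.28 ± 0.37 with si*NS* (SD, n = 4 each), a log2 change of -1.92 with a standard error of 0.27, or 3.78-fold lower (adjusted p = 0.00299 from limma). With 1 array left out the change was between -2.06 and -1.77, and it was called in each of these 8 fits. Probes for *SRSF9* can share sequence with its processed pseudogene *SRSF9P1*, whose 2 probe sets had log2 changes of -0.99 and -0.32 (adjusted p = 0.203 and 0.557 from limma). For *QKI*, *MBNL1* and *SRSF9* alike, an exact two-sided permutation test over the 8 arrays gave p = 0.0286, the smallest that 4 arrays against 4 allow. Any gene whose arrays do not overlap between the groups reaches this value, among them *CELF1* and *SRSF4*, which were not called. The test therefore adds nothing to the lack of overlap.

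The promoters of *MBNL1* and *SRSF9*, called in opposite directions, are shown. The promoter sequences used held no entry for *QKI*. Whether promoter letters bear on the direction of change was not tested. The sequences come from RefSeq (GRCh38.p14) and cover the 250 bases before the gene start, 5′ to 3′ on the strand of the gene. Capitals mark GC boxes (GGGCGG on either strand, a site known for Sp-family factors). The window of *MBNL1* is the first of 3 listed starts, at chr3:152268679-152268928 on the plus strand, and that of *SRSF9* is at chr12:120469749-120469998 on the minus strand.
MBNL1: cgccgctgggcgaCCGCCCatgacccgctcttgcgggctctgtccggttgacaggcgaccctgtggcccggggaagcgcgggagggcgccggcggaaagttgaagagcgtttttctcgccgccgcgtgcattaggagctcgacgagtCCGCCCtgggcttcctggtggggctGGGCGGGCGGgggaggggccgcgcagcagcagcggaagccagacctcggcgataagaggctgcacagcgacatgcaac
SRSF9: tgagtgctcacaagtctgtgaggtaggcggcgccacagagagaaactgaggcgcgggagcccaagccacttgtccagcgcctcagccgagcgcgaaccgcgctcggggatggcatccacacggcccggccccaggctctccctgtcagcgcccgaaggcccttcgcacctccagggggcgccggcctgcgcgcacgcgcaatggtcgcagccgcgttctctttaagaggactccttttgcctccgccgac
Both windows are rich in G and C, with 70.8% and 30 CG dinucleotides for *MBNL1* and 68.4% and 27 CG dinucleotides for *SRSF9*. The window of *MBNL1* holds 4 GC boxes, of which 2 overlap, and that of *SRSF9* holds none. No match to the other letters searched was found in these windows. A match describes letters and not binding.

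Promoter windows were found for 49 of the 55 members, with the first listed start taken for each gene and both strands searched. A GC box was present in 63.3% of members and in 42.3% of the 27305 genes of the table. The CCAAT box, bound by the factor NF-Y, was present in 34.7% of members and 33% of all genes. The promoter element named TATA box, searched as TATAAA, was present in 10.2% of members and 11.1% of all genes. An E-box, bound by MYC and USF proteins and searched as CACGTG, was present in 12.2% of members and 6.49% of all genes. The median number of CG dinucleotides was 25 in members and 11 in all genes, and the genes of the table were not limited to those tested.

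*CELF1* is the closest to a further call in the group of *MBNL1* and *QKI*. CELF proteins bind GU-rich elements, and CELF1 opposes MBNL1 at many developmentally controlled exons in heart and muscle. Its values were 11.33, 11.78, 12.10 and 12.41 with si*EPB41L4A*, against 12.50, 12.86, 12.81 and 13.12 with si*NS*. The groups did not overlap, although the highest si*EPB41L4A* array came within 0.1 of the lowest si*NS* array. The log2 change of -0.92 (standard error 0.26) was not called (adjusted p = 0.0985 from limma). A replicate block brought it past the threshold (adjusted p = 0.0344 from limma). So did removal of a trend on gene length, with a change of -0.998 (adjusted p = 0.0255 from limma). That fit held only the 18000 probe sets of known length, of which 10.2% were called. Removal of the trend and the smaller set tested cannot be told apart here. The mean over both probe sets of *CELF1* changed by -0.34 (adjusted p = 0.62 from limma). The second probe set of *CELF1* had means of 4.64 with si*EPB41L4A* and 4.40 with si*NS*, less than 1 above the negative controls.

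The paralogs of *MBNL1* were not called. *MBNL2* had 12.39, 13.03, 13.09 and 12.80 with si*EPB41L4A* and 12.13, 12.68, 12.65 and 12.24 with si*NS*, and its change of 0.40 had a standard error of 0.24 (adjusted p = 0.506 from limma). *MBNL3* had means of 3.86 with si*EPB41L4A* and 3.82 with si*NS*, both under the mean of the negative controls of 4.18, so no fold is given for it. *RBFOX2*, which recognises GCAUG elements in introns and is known for exon switching in epithelial-mesenchymal transition, changed by 0.22 (standard error 0.26, adjusted p = 0.796 from limma), with overlapping arrays. Whether the changes of the paralogs differ from that of *MBNL1* was not tested.

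Among the 11 SR proteins, 8 had a negative change and 3 a positive one, with a median of -0.30, which was -0.18 without si*EPB41L4A* replicate 3 and -0.49 without si*EPB41L4A* replicate 4. *SRSF9* was the only one called, and 4 had an unadjusted p under 0.05, a level that 22.2% of all tested genes with a single symbol reached. *SRSF4*, a long SR protein with 2 RNA recognition motifs, went the other way: it had 15.21, 15.16, 15.26 and 14.93 with si*EPB41L4A*, against 14.86, 14.42, 14.28 and 14.30 with si*NS*. Its arrays did not overlap between groups, but the log2 change of 0.68 (standard error 0.21) was not called (adjusted p = 0.14 from limma). *SRSF8*, an expressed retrocopy of *SRSF2*, had 5.67, 5.91, 5.71 and 5.91 with si*EPB41L4A* and 6.35, 6.27, 5.95 and 6.72 with si*NS*. These also did not overlap, with a log2 change of -0.52 that was not called (adjusted p = 0.303 from limma). *SRSF8* shares sequence with *SRSF2*, which was not followed here.

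The other SR genes overlapped between groups. *SRSF6*, known for effects on exon choice in *MAPT*, had 12.04, 11.95, 11.17 and 12.11 with si*EPB41L4A* and 12.57, 12.39, 11.99 and 13.13 with si*NS* (log2 change -0.70, adjusted p = 0.294 from limma). *SRSF7* and *SRSF3*, both adapters for export of mRNA, had changes of -0.48 and -0.40. *SRSF5* changed by -0.30, *SRSF12* by -0.21 and *SRSF1*, the founding member of the family, by -0.18. *SRSF10*, a splicing repressor when dephosphorylated in heat shock, and *SRSF11* stood at 0.00 and 0.06. None of these 8 genes was called, and the sign of *SRSF11* changed when 1 array was left out.

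None of the 24 hnRNP genes was called. Their changes lay between -0.62 and 0.44, with 17 above 0 and a median of 0.17. Of the 24, 1 had an unadjusted p under 0.05, as did 22.2% of all tested genes with a single symbol. The median rested on single arrays: it was 0.01 without si*EPB41L4A* replicate 4 and 0.05 without si*NS* replicate 3. *HNRNPR*, a regulator of RNA transport in neurons, had the highest change of the group, with 15.48, 15.37, 14.58 and 15.96 with si*EPB41L4A* and 15.05, 15.09, 14.35 and 15.16 with si*NS* (log2 change 0.44, standard error 0.30, adjusted p = 0.6 from limma). Replicate 3 was the lowest array in both groups. The change was 0.69 without si*EPB41L4A* replicate 3, 0.23 without si*EPB41L4A* replicate 4 and 0.25 without si*NS* replicate 3. *HNRNPUL2*, a relative of *HNRNPU* with a role in DNA end resection, followed with 0.36 (adjusted p = 0.514 from limma), and *HNRNPAB*, *HNRNPD*, *HNRNPA0* and *HNRNPA2B1* had 0.36, 0.35, 0.34 and 0.33.

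*HNRNPC* and *HNRNPA1* were the hnRNP genes whose arrays did not overlap. *HNRNPC*, which binds uridine tracts and keeps Alu-derived exons out of mRNA, had 17.79, 17.70, 17.74 and 17.67 with si*EPB41L4A*, against 17.57, 17.49, 17.53 and 17.55 with si*NS*. It changed by 0.19 with a standard error of 0.19 (adjusted p = 0.735 from limma), while the SD of its arrays was 0.05 with si*EPB41L4A* and 0.04 with si*NS*. *HNRNPA1*, a general antagonist of SR proteins at splice sites, had 19.23, 19.48, 19.26 and 19.61 with si*EPB41L4A*, against 19.10, 19.10, 19.20 and 19.23 with si*NS* (log2 change 0.24, adjusted p = 0.677 from limma). Of 62 tested *HNRNPA1* pseudogene probe sets, 59 had a positive change, with a median of 0.34, and none was called. They share sequence with *HNRNPA1*, so they are not separate measurements of it. In all, 8 of the 54 members, 14.8%, had arrays that did not overlap between groups, as did 8.61% of all tested probe sets and 14.4% of tested genes with a single symbol.

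A mean of 16 or more was found in 10 members, 9 of them hnRNPs: *HNRNPA1*, *HNRNPA2B1*, *HNRNPC*, *HNRNPD*, *HNRNPDL*, *HNRNPF*, *HNRNPH3*, *HNRNPM*, *HNRNPU* and *SRSF5*. A 16-bit scanner signal has a log2 of at most 16 before scaling, so changes at this level may be compressed. At the other end, 7 members lay less than 1 above the negative controls: *ESRP1*, *MBNL3*, *SRSF12*, *HNRNPCL2*, *HNRNPCL3*, *HNRNPCL4* and the probe set of *HNRNPK*. *HNRNPK*, a poly(C)-binding protein, is represented here by a dim probe set without a gene identifier, because its other probe set also carries *MIR7-1*. It had 4.98, 3.67, 5.07 and 5.38 with si*EPB41L4A* and 4.82, 5.30, 5.30 and 5.75 with si*NS* (log2 change -0.52, adjusted p = 0.58 from limma), and these values say little of the gene.

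*HNRNPLL*, which directs exon skipping in *PTPRC* of activated lymphocytes, had the lowest change among the hnRNPs. Its values were 9.99, 10.06, 10.54 and 9.81 with si*EPB41L4A* and 10.49, 10.43, 11.32 and 10.65 with si*NS*. Its change of -0.62 had a standard error of 0.26 and was not called (adjusted p = 0.292 from limma). *HNRNPH2* changed by -0.31 and *HNRNPH1* by -0.10, with means of 14.90 and 15.58 with si*EPB41L4A* and 15.21 and 15.68 with si*NS*.

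The core factors of 3′ splice site recognition had the smallest changes of the 5 role groups by their median size. The 11 SF3A, SF3B and U2AF genes had a median change of 0.02 and a median size of change of 0.07, against 0.29 for all tested genes with a single symbol, and none was called. *SF3A1* and *SF3A2* had the highest changes, 0.08 and 0.07. *SF3B1*, the branch point subunit that is mutated in myelodysplastic syndromes, had 10.79, 10.94, 11.11 and 11.72 with si*EPB41L4A* and 10.70, 11.24, 10.89 and 11.52 with si*NS*, a change of 0.05 (standard error 0.27). Its arrays interleaved.

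*SF3B3*, a scaffold subunit of SF3B, had 11.88, 11.71, 11.77 and 12.73 with si*EPB41L4A* and 12.89, 12.63, 12.51 and 13.11 with si*NS*. It changed by -0.76 with a standard error of 0.27 (adjusted p = 0.19 from limma), and without si*EPB41L4A* replicate 4, the one array of its group that reached the si*NS* values, the change was -0.999 (adjusted p = 0.0566 from limma). *U2AF2*, the subunit that binds the polypyrimidine tract, had 11.88, 12.30, 11.95 and 13.76 with si*EPB41L4A* and 12.93, 13.14, 12.58 and 13.87 with si*NS*. Replicate 4 was again the highest array of each group, and the change of -0.65 was not called (adjusted p = 0.538 from limma). Leaving out si*EPB41L4A* replicate 4 gave -1.08 and leaving out si*NS* replicate 4 gave -0.41, neither of them called. A second, dimmer *U2AF2* probe set changed by -0.66 (adjusted p = 0.3 from limma). *U2AF1*, the subunit that reads the AG of the 3′ splice site, changed by -0.16 and -0.02 on its 2 probe sets.

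Neither PTBP gene followed was called. *PTBP2*, the neuronal form of polypyrimidine tract-binding protein, had 8.38, 9.46, 8.29 and 9.41 with si*EPB41L4A* and 9.65, 9.72, 8.82 and 11.24 with si*NS*. The change of -0.97 had the largest standard error of all members, 0.46 (adjusted p = 0.371 from limma). It was -0.51 without si*NS* replicate 4, the highest array, and a second *PTBP2* probe set changed by -0.14. *PTBP3* had 15.46, 15.88, 15.62 and 15.38 with si*EPB41L4A* and 15.28, 15.26, 15.43 and 14.23 with si*NS*. Its change of 0.54 (adjusted p = 0.43 from limma) was 0.26 without si*NS* replicate 4, which lay below the other arrays.

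Arrays differed in the level of splicing factor genes as a class, apart from the groups. Relative to each gene's mean over the 8 arrays, the members had medians of -0.08, -0.07, -0.14 and 0.34 on si*EPB41L4A* arrays 1 to 4, and of 0.01, -0.06, -0.22 and 0.30 on si*NS* arrays 1 to 4. Array 4 was the highest of its group on both sides, and array 3 the lowest. The same medians over all tested probe sets stayed between -0.06 and 0.05. The pattern was marked for the SF3A, SF3B and U2AF genes, at 0.42 on si*EPB41L4A* array 4 and 0.41 on si*NS* array 4, against -0.49 on si*EPB41L4A* array 3 and -0.13 on si*NS* array 3. The median change of the members was -0.08 without si*EPB41L4A* replicate 4 and 0.16 without si*NS* replicate 4, so its sign rests on single arrays. The same 3 members were called in each of the 8 fits with 1 array left out. With the replicate number as a block, 4 members were called (7.41% of those tested), the fourth being *CELF1*, against 4.75% of all tested probe sets and 9.95% of tested genes with a single symbol.

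**Figure D3:**
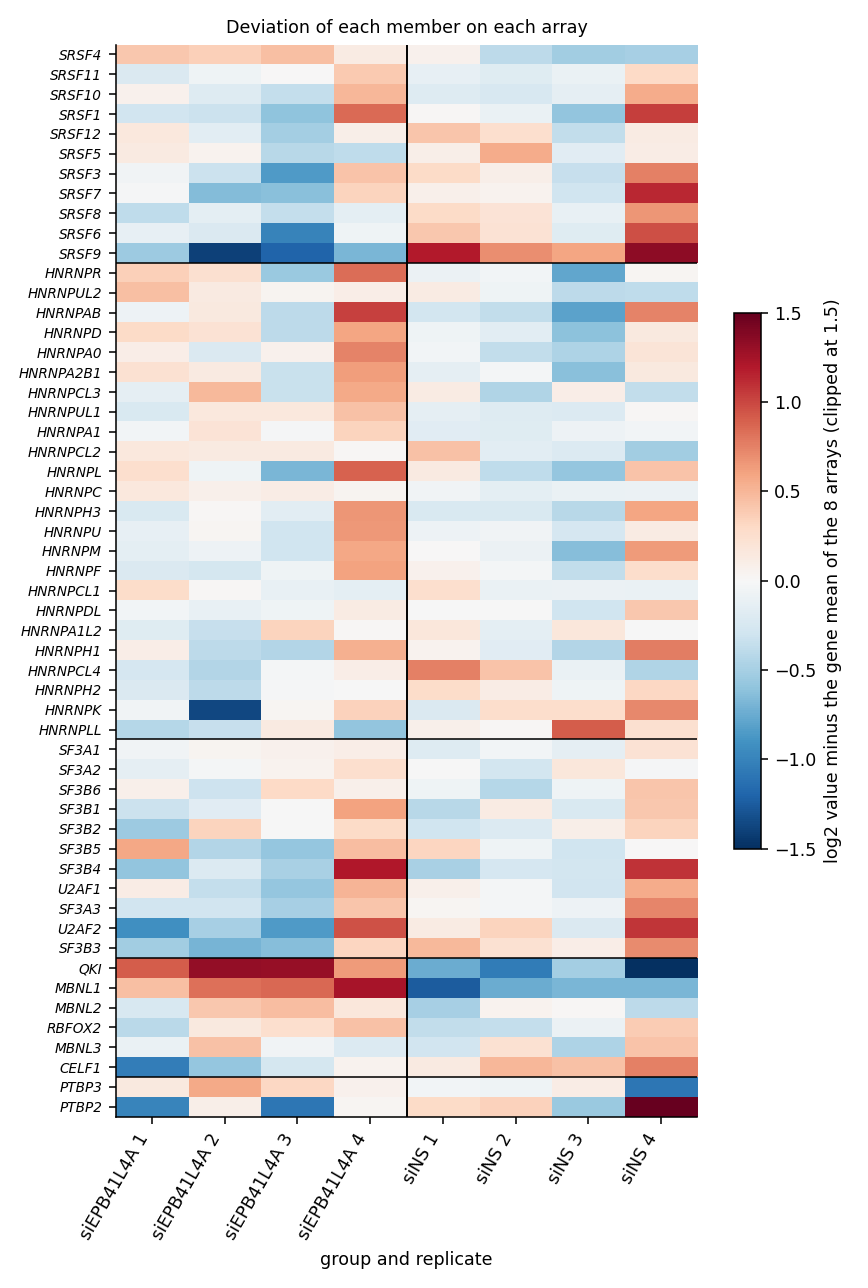
Log2 value of each tested member on each array minus its mean over the 8 arrays (colour, red above and blue below the mean, clipped at 1.5); si*EPB41L4A* arrays stand left of the black line and si*NS* arrays right of it, and rows are grouped by role. The columns of array 4 are red for most members in both groups (medians 0.34 and 0.30), while *QKI*, *MBNL1* and *SRSF9* differ between the groups on all arrays.

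Gene length moved with the changes. Over the 54 members, the Spearman correlation of log2 change with gene length was 0.21, and over 17286 tested genes with a known length it was 0.17. These are correlations across genes on the same 8 arrays, and genes are not independent replicates. The 7 members of at least 100 kb are *QKI*, *MBNL1*, *MBNL2*, *MBNL3*, *RBFOX2*, *PTBP2* and *PTBP3*. Their median change was 0.40, and 6 of them had a positive change. One of these was *MBNL3*, at 0.04, with means under that of the negative controls. *CELF1*, with a length of 99603 bases and a change of -0.92, fell just short of the 100 kb limit, so the count depends on that limit. All tested genes of at least 100 kb had a median of 0.07 and those under 10 kb of -0.10. With a smooth trend on gene length removed from each array, *QKI* had a change of 1.99 (adjusted p = 0.00223 from limma), and *MBNL1* and *SRSF9* were also still called. This fit covered the 18000 probe sets of known length, of which 10.2% were called.

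Other genes of the splicing machinery, taken from 6 lists by function, held 7 called genes among 160 tested, or 4.38%, all of them lower. Of tested genes with a single symbol, 2.96% were called lower and 2.55% higher, 5.51% in either direction. With the replicate block, 13 of the 160 were called, 2 higher and 11 lower. This is 8.12% of the 160, against 9.95% of tested genes with a single symbol, and the genes added were *SREK1IP1* and *LSM5* (higher) and *DYRK1B*, *RNPS1*, *SF1* and *SNRNP25* (lower). Of the 43 tested U snRNP proteins, 3 were called lower and none higher, with a median change of -0.15. *PRPF6*, a bridging protein of the U4/U6.U5 tri-snRNP, had 10.89, 10.65, 10.48 and 11.04 with si*EPB41L4A*, against 12.19, 11.80, 12.03 and 12.04 with si*NS* (log2 change -1.25, adjusted p = 0.00905 from limma). It was called in all 18 alternative fits. *PRPF31*, a U4/U6 protein mutated in retinitis pigmentosa, changed by -1.42 (adjusted p = 0.0307 from limma) and the Sm ring protein *SNRPD2* by -1.10 (adjusted p = 0.0357 from limma).

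Of 26 tested SR-related proteins, 2 were called lower and none higher, with a median change of -0.10. *LUC7L3*, a U1-associated protein with an RS domain, had 14.00, 14.07, 14.12 and 14.29 with si*EPB41L4A*, against 15.26, 15.31, 15.17 and 16.14 with si*NS* (log2 change -1.35, adjusted p = 0.0133 from limma). *RSRP1*, an arginine- and serine-rich protein, changed by -1.20 (adjusted p = 0.0291 from limma). Among 39 other RNA-binding regulators, with a median of -0.04, *RBM4* and *RBM6* were called lower, at -1.19 and -0.98 (adjusted p = 0.0151 and 0.0198 from limma). *RBM4* has the near-identical neighbour *RBM4B*, whose change was 0.10. With 1 array left out, between 2 and 5 of these 7 genes were called, with *PRPF6* and *LUC7L3* called in all 8 fits and *RSRP1*, *SNRPD2* and *PRPF31* in 1.

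No gene was called in the other 3 lists without the block. The 10 tested genes of the list of SR kinases and phosphatase, which set the phosphorylation of RS domains, had a median of 0.04 and 5 had an unadjusted p under 0.05. The 31 spliceosome activation and catalysis proteins had a median of -0.16, with 5 at an unadjusted p under 0.05. The 11 genes of the exon junction complex and of nonsense-mediated decay had a median of -0.38, with 3 at that level. An unadjusted p under 0.05 was reached by 22.2% of all tested genes with a single symbol.

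**Figure D4:**
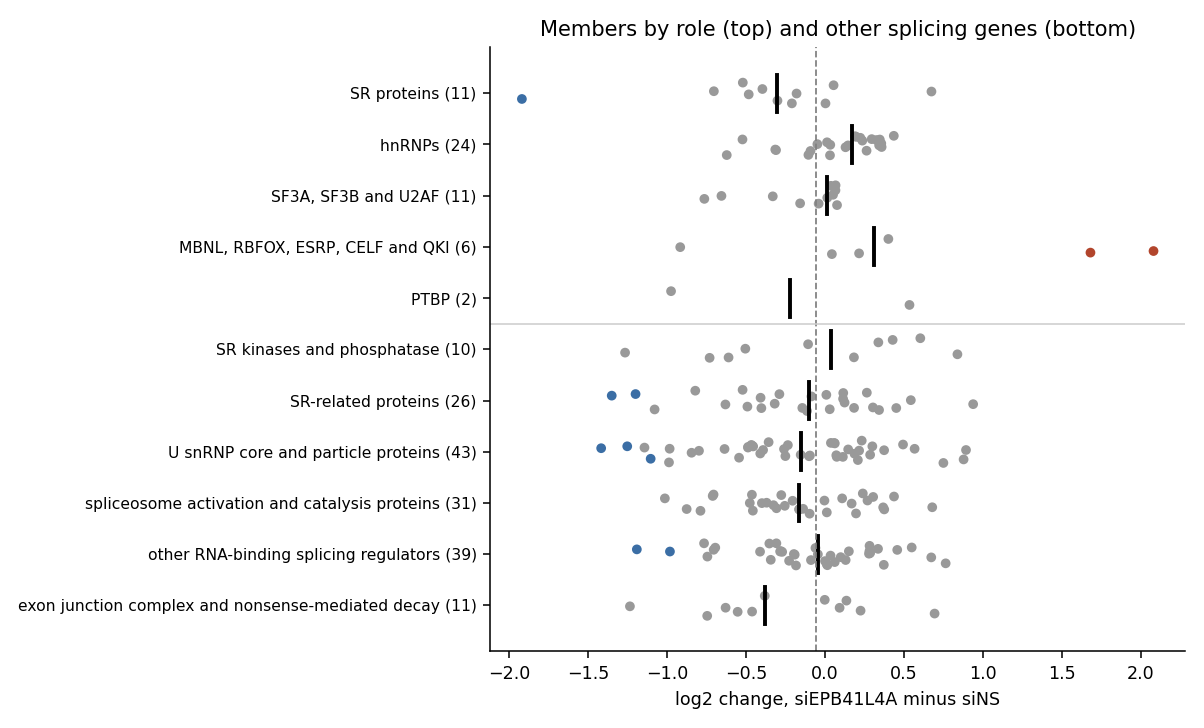
Log2 change (x axis, si*EPB41L4A* minus si*NS*) of the tested members by role (top) and of other splicing genes by function (bottom), with the number of genes in brackets; each point is a gene, red if called higher and blue if called lower, black bars are medians and the dashed line is the median of all tested genes with a single symbol, -0.06. The 2 genes called higher, *QKI* and *MBNL1*, are of different families that were pooled in 1 role group, while the 8 genes called lower lie in 4 groups.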

How the data were processed

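The genes and lists described were chosen with earlier results of these data known. The authors normalised the arrays with RMA in Affymetrix Expression Console, as the submitters' processing notes say, and the log2 signals they deposited, 1 for each probe set of each array, were used without further correction. The software version is not given in the sources used here, and neither is the genome build. The methods name a noise filter and a linear model with a moderated statistic. Probe sets above the array median on at least 4 of 8 arrays (66831 of 135750, besides 2995 control rows) entered limma (version 3.58.1, under R 4.3.3). Changes are si*EPB41L4A* minus si*NS* from lmFit and eBayes without a block, with Benjamini-Hochberg adjustment over all of them and a threshold of 0.05. The fit was tested on simulated data. Precision is limited by the number of arrays, since these have no read depth. Probe sets with several symbols named no gene. Genes described in full were those called, up to 2 largest rises and 2 largest falls of each role group, those not tested and those whose arrays did not overlap, as well as every called gene of the pathway lists; other members are given to account for the list. The cultures are described as biological replicates made at different times. Alternatives were other filters (none, or the 75th percentile), quantile normalization again, centring, array weights, a trended prior variance, a replicate block, Student's t-test, averaging of a gene's probe sets, other thresholds and leaving out each array, with removal of a trend on gene length added after the values were seen.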

Additional observations from a re-analysis of the deposited data

Results flagged for a closer look

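In 6 of 40 checks of 4 arrays (20 tested members described in full, 2 groups each), 1 array lay apart from the other 3 by Dixon's criterion. Chance alone gives about 1 in 20 for independent checks. These members were picked from the same data and share arrays, so whether 6 of 40 is an excess cannot be judged. *SF3B3* was 12.73 on si*EPB41L4A* replicate 4, above 11.71 to 11.88 on the other si*EPB41L4A* arrays. *SRSF6* was 11.17 on si*EPB41L4A* replicate 3, below 11.95 to 12.11 on the others. *SRSF11* was 13.56 on si*NS* replicate 4, above 13.08 to 13.16 on the others, and *PTBP3* was 14.23 on the same array, below 15.26 to 15.43 on the others. *HNRNPR* was 14.35 on si*NS* replicate 3, below 15.05 to 15.16 on the others. *MBNL1*, the only called gene among these, was 12.74 on si*NS* replicate 1, below 13.25 to 13.31 on the others, and without that array its change was still called.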

How the results depend on the processing

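Over 18 alternative fits, *MBNL1* was called in 18 and *QKI* and *SRSF9* in 17 each. Student's t-test without moderation called 1 member, *MBNL1*, with adjusted p = 0.0808 for *QKI* and 0.0622 for *SRSF9*; it called 312 of all tested probe sets, against 1747 with limma. With a replicate block 4 members were called, the addition being *CELF1*, and 3176 of 66831 probe sets (4.75%). With the trend on gene length removed the same 4 were called, and 1842 of the 18000 probe sets of known length (10.2%). A threshold of 0.10 also added *CELF1*, and the share of all probe sets at that threshold is not given here. Arrays 1 to 4 of both groups had correlations of 0.228, 0.0746, 0.201 and 0.385 between their deviations from group means, all of them positive. No source states a pairing, so equal numbers were not read as pairs in the main fit. These correlations do not settle whether they are pairs. With 1 array left out, 3 members were called each time, and between 797 and 1628 probe sets. The median change of the members lay between -0.08 and 0.16 in these fits, that of *SF3A2* between -0.0143 and 0.137 and that of *SRSF11* between -0.0655 and 0.164, so the sign of each turned. Quantile normalization again gave a median of 0.11. The limits are 4 arrays a group, 1 siRNA pool, groups that may differ in batch, values above 16 that may be compressed, and 7 members near the negative controls. P-values from limma rest on the spread between these cultures, moderated toward a variance shared over all tested probe sets.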
